A study of Mus musculus with 4 samples.

Results

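Methylated regions in gene deserts were followed here in the islets of WT and βRapKO mice. Peaks of methylated DNA called in each of the 4 libraries were joined where they overlapped by 1 bp or more on chromosomes 1 to 19. A joined region counted as a desert region if it overlapped no GENCODE M21 gene of any type and lay more than 100 kb from the nearest protein-coding gene body (GRCm38, mm10). This rule kept 25738 of 180857 joined regions on these chromosomes (14.2%). The choice used positions only, not levels. Of the rest, 108180 regions overlapped a gene and 46939 lay between genes within 100 kb of a coding gene.

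The measurement was MeDIP-seq: sheared DNA is pulled down with an antibody to methylated cytosine and sequenced. Both genotypes were 8 weeks old, labelled as C57BL/6 (the methods give the RipCre line a mixed C57BL/6J:129/SvJ background), and carried the Raptor allele flanked by loxP sites on both chromosomes. WT animals lacked Cre, whereas βRapKO animals also carried RipCre, in which the rat insulin promoter drives Cre in beta cells, so that Raptor, a scaffold subunit of the mTORC1 kinase, is lost there. There were 2 libraries per genotype, and nothing in the labels says whether these came from separate animals or pools, so that p-values measure only the spread between these libraries. Islets also hold alpha, delta and other cells that keep Raptor, and a shift in the mix of cells and a shift within beta cells cannot be told apart in whole islets. DNA gives no marker level by which the tissue label or the loss of Raptor could be checked.

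After removal of duplicates the libraries held 25585533 to 31330751 tags, or 49.0 to 50.2% of those aligned, and 117638 to 151093 peaks. WT library 2 was the deepest, had the most peaks and had the shortest estimated fragment (238 bp, against 269 to 283 bp in the others). A desert region had a peak in 16482 to 20168 cases per library (WT 16609 and 20168, βRapKO 16482 and 16946).

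Gene deserts are long stretches with no coding gene. Some hold distant enhancers of developmental genes at their borders, and many are rich in interspersed repeats such as LINE elements and endogenous retroviruses. Most CpG sites of such DNA are methylated in adult tissue, and methylated CpG sites mutate over time, so that deserts hold few of them. The median desert region in these data held 1.53 CpG sites per 100 bp, against 0.594 in all desert DNA. It was thus a local group of CpG sites in CpG-poor DNA, but 19.5% of desert regions held under 1 CpG site per 100 bp. Methylation of repeat copies is known as one of the ways in which cells keep them silent.

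The sequences of 9 desert regions are shown as the central 300 bp of each, plus strand of GRCm38, with CpG sites in capitals. The first pair comes from regions of the highest level between the genes Lama2 and Ptprk and between Nup35 and Zfp804a.
chr10:27821870-27822169: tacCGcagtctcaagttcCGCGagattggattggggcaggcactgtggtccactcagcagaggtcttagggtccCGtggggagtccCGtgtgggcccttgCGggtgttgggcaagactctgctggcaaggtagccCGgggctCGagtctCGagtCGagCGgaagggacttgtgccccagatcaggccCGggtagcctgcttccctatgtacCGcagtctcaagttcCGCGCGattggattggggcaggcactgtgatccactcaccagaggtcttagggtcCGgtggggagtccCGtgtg
chr2:80814441-80814740: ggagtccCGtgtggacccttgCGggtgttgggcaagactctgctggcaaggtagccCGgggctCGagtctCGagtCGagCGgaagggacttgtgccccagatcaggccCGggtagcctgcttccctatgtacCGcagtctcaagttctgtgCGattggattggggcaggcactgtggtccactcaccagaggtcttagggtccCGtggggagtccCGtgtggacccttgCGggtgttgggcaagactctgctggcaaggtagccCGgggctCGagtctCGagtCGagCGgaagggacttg
Both windows held 18 CpG sites, and each came from a tandem array of its own, built of similar sequence. Shifted by 208 bp against itself, the whole region between Lama2 and Ptprk was identical at 87.5% of its bases and the one between Nup35 and Zfp804a at 84.7%. The next set comes from the 3 regions with the smallest p between genotypes, near Scgb2b15, Dync2h1 and Gm12728.
chr7:32669925-32670224: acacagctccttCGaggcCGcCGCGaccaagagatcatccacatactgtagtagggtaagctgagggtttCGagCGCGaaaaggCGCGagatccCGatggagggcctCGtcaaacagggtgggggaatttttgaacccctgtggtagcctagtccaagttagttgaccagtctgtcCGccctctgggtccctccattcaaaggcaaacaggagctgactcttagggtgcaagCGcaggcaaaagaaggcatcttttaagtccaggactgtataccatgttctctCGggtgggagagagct
chr9:6700587-6700886: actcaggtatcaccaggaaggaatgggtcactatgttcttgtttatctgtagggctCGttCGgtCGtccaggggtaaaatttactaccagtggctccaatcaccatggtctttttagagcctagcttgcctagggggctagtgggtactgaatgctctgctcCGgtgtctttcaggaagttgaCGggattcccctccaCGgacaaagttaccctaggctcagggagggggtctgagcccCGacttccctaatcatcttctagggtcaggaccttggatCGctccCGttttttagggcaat
chr4:105531899-105532198: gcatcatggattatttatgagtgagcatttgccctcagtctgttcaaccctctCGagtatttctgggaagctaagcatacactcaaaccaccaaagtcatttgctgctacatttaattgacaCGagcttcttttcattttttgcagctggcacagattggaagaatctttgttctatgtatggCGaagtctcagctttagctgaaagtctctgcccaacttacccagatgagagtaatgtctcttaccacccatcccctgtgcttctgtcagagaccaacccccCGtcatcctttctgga
These held 14, 9 and 4 CpG sites. The region whose level was lowest in βRapKO relative to WT, near Luzp2, held no CpG site in its central window.
chr7:53821201-53821500: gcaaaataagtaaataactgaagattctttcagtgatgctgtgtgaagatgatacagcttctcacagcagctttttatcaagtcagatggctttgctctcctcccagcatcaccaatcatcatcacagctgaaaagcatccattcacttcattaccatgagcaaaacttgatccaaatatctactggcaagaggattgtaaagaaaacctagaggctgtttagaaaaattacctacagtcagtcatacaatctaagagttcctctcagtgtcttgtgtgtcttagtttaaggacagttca
The last set shows the range of CpG content. It comprises the region richest in CpG sites, between Zeb2 and Acvr2a (59 sites in the window), a CpG-rich region near Ywhaq with a peak in every library (12 sites), and the region farthest from any coding gene, between Tenm3 and Aga (6 sites).
chr2:46281952-46282251: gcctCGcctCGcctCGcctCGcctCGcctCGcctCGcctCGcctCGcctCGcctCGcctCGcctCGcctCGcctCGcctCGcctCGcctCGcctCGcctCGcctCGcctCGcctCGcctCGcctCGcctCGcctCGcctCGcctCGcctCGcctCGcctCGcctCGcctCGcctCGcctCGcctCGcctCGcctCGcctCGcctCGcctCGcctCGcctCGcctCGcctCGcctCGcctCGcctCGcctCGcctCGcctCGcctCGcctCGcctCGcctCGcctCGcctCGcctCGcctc
chr12:21898344-21898643: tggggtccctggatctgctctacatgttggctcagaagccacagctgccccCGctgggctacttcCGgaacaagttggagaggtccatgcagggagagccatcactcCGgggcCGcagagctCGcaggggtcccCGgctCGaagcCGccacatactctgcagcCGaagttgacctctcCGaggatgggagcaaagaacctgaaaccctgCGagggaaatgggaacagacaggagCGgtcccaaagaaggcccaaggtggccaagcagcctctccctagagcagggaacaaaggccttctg
chr8:51163381-51163680: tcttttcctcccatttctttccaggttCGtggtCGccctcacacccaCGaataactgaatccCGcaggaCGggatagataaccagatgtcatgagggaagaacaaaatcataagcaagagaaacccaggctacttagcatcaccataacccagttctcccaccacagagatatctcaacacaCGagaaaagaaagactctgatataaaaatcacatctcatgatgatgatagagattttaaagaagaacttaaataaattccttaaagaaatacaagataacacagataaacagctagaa
The window between Zeb2 and Acvr2a was largely a run of the unit CCTCG.

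Desert DNA covered 589 Mb, 24.6% of the sequenced bases of the autosomes, but only 17.2% of their CpG sites. It held 0.594 CpG sites per 100 bp, against 0.858 in DNA between genes within 100 kb and 0.977 in genes. Desert regions were sparser both by length and by CpG site. There were 43.7 per Mb, against 72.5 and 93.2, and 7.35 per 1000 CpG sites, against 8.46 and 9.54. Desert regions held 16.9% of all desert CpG sites, against 19.02% and 22.2% for regions of the other classes. Density over the chromosomes ran from 37.99 regions per Mb of desert on chromosome 14 to 52.3 on chromosome 13.

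Within the regions the CpG content was almost level between classes. Desert regions had a median of 1.53 CpG sites per 100 bp (quartiles 1.10 and 2.03), regions within 100 kb 1.56 and genic regions 1.61. The ends of the distribution were fuller in deserts. Under 1 CpG site per 100 bp were 19.5% of desert regions, against 13.9% and 12.3%, and over 4 were 1.05%, against 0.528% and 0.656%. Only 28 desert regions held no CpG site at all.

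The classes parted by repeat content. A median of 42.2% of the bases of a desert region was in lower case in the reference, which marks repetitive and low-complexity sequence, against 32.9% within 100 kb and 19.1% in genes. Copy number gave the same order. Words of 31 bases, sampled at 1 in 8, were called shared if they lay in at least 10 joined regions. Desert regions with more than 50% shared words numbered 5374 (20.9%), against 10.9% and 3.98%. Short dinucleotide runs did not follow. At least 10 CA units in a row (CACACACACACACACACACA or its reverse complement) stood in the central 300 bp of 2.96% of desert regions, against 3.13% of all autosomal regions.

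**Figure D1:**
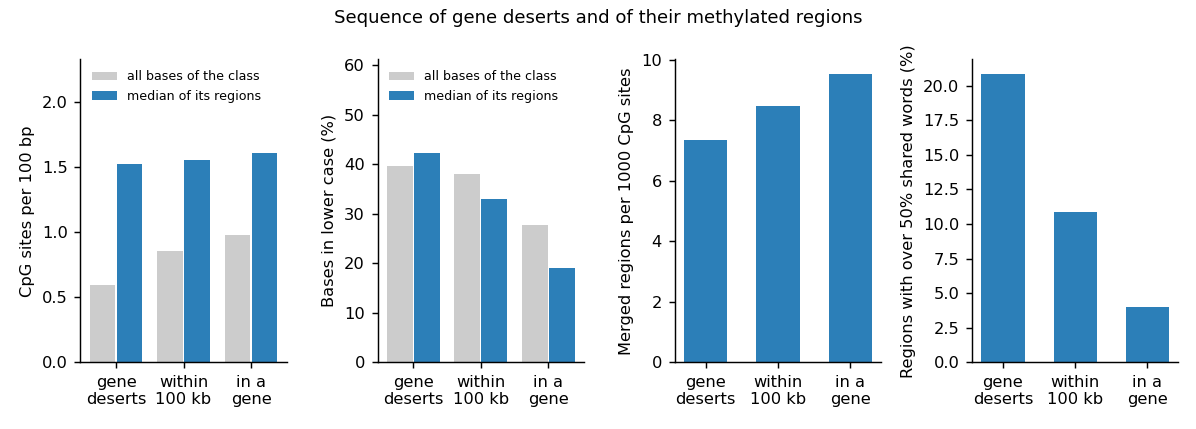
CpG content, share of bases in lower case, regions per 1000 CpG sites and share of regions with over 50% shared words, for gene deserts, DNA between genes within 100 kb of a coding gene, and genes. Grey bars give all bases of a class and blue bars its regions (medians in the first pair of panels). Desert DNA has 0.594 CpG sites per 100 bp but its regions have 1.53, and 20.9% of desert regions are mostly shared words.

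In total 11025 desert regions (42.8%) were called as peaks in every library, against 40.3% of all 186169 joined regions, X and Y included. The share rose with CpG content, from 22.0% of regions with up to 1 CpG site per 100 bp to 76.3% of those with 3 to 4, and was 47.97% above 4. It was 26.1% for regions with no shared word and 71.8% for those with over 50% shared words. Regions found in every library were more repetitive in deserts (median 63.0% of bases in lower case) than within 100 kb (39.9%) or in genes (19.7%). Tags of near-identical copies can be placed at the wrong copy, and how the alignment treated them is not given in the sources used here, so levels of single repeat copies are uncertain.

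Distance to a coding gene had a median of 257 kb (quartiles 158 and 461 kb). It exceeded 500 kb for 5727 regions (22.3%) and 1 Mb for 1704 (6.62%). Repeat content rose with it. The median share of bases in lower case was 30.1% at 100 to 200 kb, 39.7% at 200 to 500 kb, 65.5% at 500 kb to 1 Mb and 76.5% beyond. Width and CpG content barely moved, with medians of 1113 and 1084 bp and of 1.49 and 1.71 CpG sites per 100 bp in the nearest and the farthest bin. Values were close on both sides of the limit. The 3 desert regions just inside lay 100.031 to 100.042 kb from a gene and the 3 just outside 99.979 to 99.999 kb, and between 90 and 110 kb the share called in every library was 41.4% inside and 39.7% outside.

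The 3 most distant desert regions lay between Tenm3, which encodes an adhesion protein of developing neurons, and Aga, a lysosomal enzyme gene. The farthest, chr8:51163010-51164052, was 2319 kb from Tenm3 and 2348 kb from Aga. Its level, in tags per 1000000 tags kept (CPM), was 1.52 and 1.31 in WT and 1.68 and 1.34 in βRapKO, so the genotypes overlapped. The region at chr8:51153845 gave 1.84 and 1.31 in WT and 2.05 and 1.75 in βRapKO, again overlapping. The region at chr8:51129305, of which 92.8% was in lower case, stood higher, at 10.2 and 10.8 CPM in WT and 10.8 and 9.87 in βRapKO. Neighbouring regions this far from genes thus differed in CPM per region, beside a median WT level of 2.36 CPM over the desert regions called in every library. The region at chr8:51129305 was also longer, at 3885 bp against 1043 and 1071 bp. Per kb of called peak the 3 regions gave 1.46 to 1.63, 1.63 to 2.30 and 2.56 to 3.15, in the order given above. Their adjusted p was 0.959, 0.879 and 0.977 (edgeR quasi-likelihood test).

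Desert regions fell into 1227 intervals between neighbouring coding genes, with a median of 13 regions each. The 129 intervals with 50 or more held 9405 regions (36.5% of all). The distance between regions of an interval had a median of 11.6 kb (quartiles 4.45 and 28.4 kb). Longer intervals held more regions (Pearson 0.847, Spearman 0.879, over 1227 intervals that share the libraries, given as a description). The interval with the most, 132 in 3612 kb, lay between Igfbp7, a secreted binding protein of insulin-like growth factors, and Adgrl3, an adhesion receptor of neurons.

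The density of regions went with their sequence. Among intervals with 20 or more regions, 175 had regions with a median under 30% in lower case and held a median of 52.1 regions per Mb, whereas 174 with 60% or more held 26.1 per Mb. The former were shorter (median 681 kb, against 1516 kb), and a minimum of 20 regions keeps short intervals only where they are dense. Their regions were less often found in all 4 libraries (36.0%, against 49.7%) and 5.97% of them, against 35.1%, were mostly shared words. The interval between Vrk1 and 3110018I06Rik stood for the first kind, with 125 regions in 1411 kb and 15.1% in lower case. The one between Kcnj2 and Sox9, the classical desert of remote Sox9 enhancers, had 107 in 1705 kb and 21.2%. Those between Cntnap5b and Cdh20 (119 regions in 4283 kb, 77.5%) and between Slc39a10 and Tmeff2 (117 in 4008 kb, 77.2%) stood for the second kind.

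**Figure D2:**
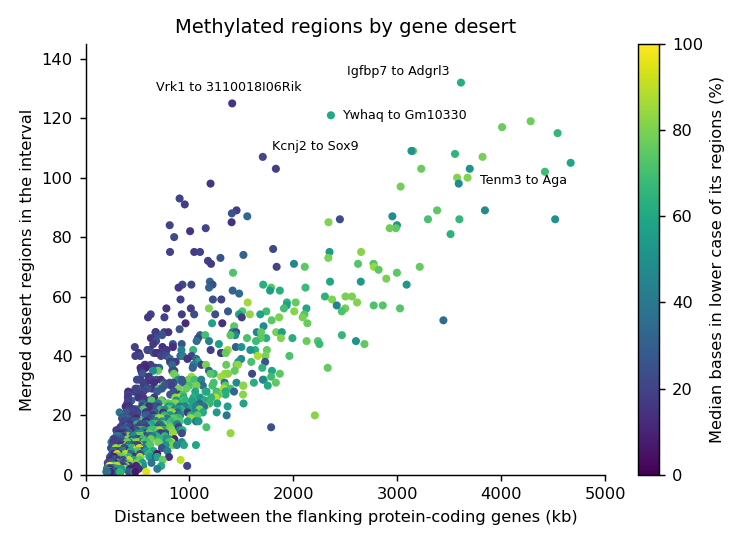
Number of desert regions (y axis) against the distance between the flanking coding genes in kb (x axis), 1 point per interval, coloured by the median share of bases in lower case of its regions. Intervals of little masked sequence, such as Kcnj2 to Sox9 (21.2%), hold more regions for their length than long ones of more masked sequence, such as Tenm3 to Aga (59.3%, 105 regions in 4668 kb).

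Compared with other autosomal peaks of the same library, desert peaks were a little denser, narrower and more enriched in each library. Tag density, in tags per kb of peak per 1000000 tags, was higher by 0.0343 ± 0.0026 (SD, n = 4 libraries) in the median peak. Width was smaller by a median of 30 to 44 bp. Fold enrichment over the local background, as given by the peak caller, was higher by 0.512 ± 0.035. All 4 libraries shared each direction, and an exact two-sided sign-flip permutation test over them gave p of 1 in 8 for each measure, the smallest it can give with 4 libraries. For peaks with a score of at least 100 the width difference shrank to −6.5 bp and the exact sign-flip permutation p rose to 0.375, while the density difference was 0.103.

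Whether desert methylation differed in islets whose beta cells lack Raptor was asked first of the deserts as a whole. Deserts took 14.9% and 14.5% of the tags in peaks in WT, and 15.4% and 15.3% in βRapKO. The share was thus higher in both βRapKO libraries, by 0.638 percentage points (WT 14.7 ± 0.282, βRapKO 15.3 ± 0.0664, SD, n = 2). The exact two-sided permutation test gave p = 0.333, the smallest that 2 against 2 libraries can give. The difference was 0.379 points with equal numbers of peaks and 1.09 points for peaks with a score of at least 100. The median density of desert peaks was 1.88 and 1.87 in WT and 1.72 and 1.72 in βRapKO, and their median fold enrichment 7.71 and 7.77 against 7.37 and 7.34. Both were lower in each βRapKO library, with p = 0.333 again (exact permutation test). The density difference turned to 0.137 higher in βRapKO, with overlapping libraries (p = 1, exact permutation test), when density was taken per 1000000 tags in peaks. Peaks held 32.0% and 35.4% of tags in WT and 29.2% and 30.99% in βRapKO.

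Desert peaks were also wider in βRapKO, at a median width of 1074 and 1111 bp, while WT had 1032 and 907 bp (exact permutation p = 0.333). The difference of 123 bp was 60.5 bp without WT library 2 and 185.5 bp without WT library 1. The other classes showed the same directions. The difference in median density, βRapKO minus WT, was −0.155 in deserts, −0.147 within 100 kb and −0.161 in genes, and peaks were wider by 123, 128 and 128 bp in the 3 classes. Library 2 of WT, the deepest, had the narrowest peaks, and the part of depth and fragment length in the difference was not tested.

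Single regions were then compared over 75052 regions called in every library (X and Y included), of which 11025 lay in deserts. At a false discovery rate (FDR) under 0.05 and a fold above 1.5, edgeR called 0 desert regions lower and 0 higher, against 0% of all regions tested in either direction. The smallest adjusted p in deserts was 0.173, which was also the smallest of all regions. At an unadjusted p under 0.05, 284 desert regions were lower (2.58%) and 206 higher (1.87%), against 3.93% and 1.88% of all regions tested. DESeq2, which scaled the libraries in its own way, called 1 desert region higher. It put 108 at an unadjusted p under 0.05, of which 21 were lower and 87 higher, the other order from edgeR. Its scaling moved all classes and not deserts alone. The median fitted log2 fold change was 0.002 over all regions tested and 0.016 in deserts, against −0.059 and −0.046 with edgeR. With limma 0 were called, and 494 had an unadjusted p under 0.05 (285 lower, 209 higher). For DESeq2 and limma no share over all regions is given beside these counts, so they are not read as a trait of deserts.

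By size alone, 99 desert regions were lower by more than 1.5-fold (0.898%, against 1.77% of all regions tested) and 140 were higher (1.27%, against 1.29%). The 2 βRapKO values lay below both WT values in 2581 desert regions (23.4%, against 25.3%) and above both in 1385 (12.6%, against 11.6%). The mean CPM was lower in βRapKO in 58.9% of desert regions, against 61% of all. The median log2 fold change was −0.05 in deserts, −0.05 within 100 kb and −0.07 in genes. This direction rested on the scaling. The desert median was 0.02 with TMM, 0.11 when scaled to the tags in peaks and −0.16 per kb of called peak, and the median of all regions moved from −0.06 to 0.10 when scaled to the tags in peaks. TMM moved the number lower by more than 1.5-fold to 58, and scaling to the tags in peaks gave 30 lower and 365 higher. Any library left out raised both counts, to 181 and 373 without WT library 1, 225 and 293 without WT library 2, 209 and 250 without βRapKO library 1, and 410 and 208 without βRapKO library 2 (lower and higher).

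Most desert regions past 1.5-fold differed in how much of the region had been called as peak. Of the 140 higher ones, 127 had a longer called length in both βRapKO libraries than in either WT library, and the median log2 ratio of called length was 0.90. Of the 99 lower ones, 54 had a shorter called length in both βRapKO libraries (median log2 ratio −0.45). Over all 11025 regions the called length was longer in both βRapKO libraries in 3741 and shorter in 567. Per kb of called peak, 1 of the 140 stayed past 1.5-fold higher and 7 were past it in the other direction, and 16 of the 99 stayed past 1.5-fold lower. Regions higher by more than 1.5-fold were long, with a median of 2274 bp, against 1398 bp for all desert regions tested.

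**Figure D3:**
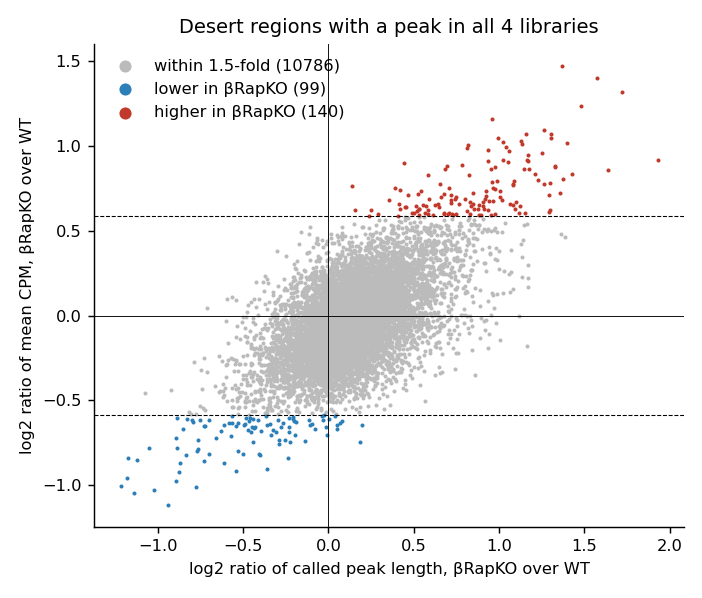
Log2 ratio of the mean CPM (y axis) against the log2 ratio of the called peak length (x axis), βRapKO over WT, for the 11025 desert regions called in every library, 1 point per region, dashed lines at 1.5-fold. The 140 red points (higher) lie at positive ratios of called length and most of the 99 blue points (lower) at negative ones.

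The region of the smallest p, chr7:32666424-32673726, lay between Scgb1b29 and Scgb2b15, genes of the secretoglobin family of secreted proteins. It held 7.90 and 7.31 CPM in WT and 18.7 and 19.2 in βRapKO. The βRapKO libraries were thus far above WT and close to each other (7.60 ± 0.414 and 18.9 ± 0.336, SD, n = 2, a log2 fold change of 1.32, adjusted p = 0.173 with edgeR). DESeq2 gave it an adjusted p of 0.0239, and over the other edgeR and limma fits its adjusted p ran from 0.0955 with TMM to 0.942 without WT library 2. The called length was 2738 and 1645 bp in WT and 7269 and 7163 bp in βRapKO. Per kb of called peak the order turned, with 2.88 and 4.44 in WT and 2.57 and 2.67 in βRapKO (log2 −0.48). Of its bases 98.8% were in lower case, and 13 other desert regions drew at least 50% of their words from it, of which 4 were lower and 5 higher among the 9 with a peak in all 4 libraries.

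The region of the next smallest p, chr9:6698125-6703348, lay between Pdgfd, a platelet-derived growth factor gene, and Dync2h1, the motor protein of transport in cilia. It gave 17.7 and 16.3 CPM in WT and 9.24 and 10.3 in βRapKO (log2 −0.80, adjusted p = 0.358, edgeR). Its called length was 5123 and 3964 bp in WT and 2545 and 2779 bp in βRapKO, and per kb the log2 ratio was −0.04. The third, chr4:105530841-105533256, lay between Plpp3, a phosphatase of lipid signals, and Gm12728, and was mostly unique sequence (29.6% in lower case, no shared word). Its level was 0.899 and 1.09 CPM in WT and 2.57 and 2.67 in βRapKO (23 and 34 tags, against 75 and 78, log2 1.401, adjusted p = 0.358, edgeR). The called length was 597 and 753 bp in WT and 1969 and 2055 bp in βRapKO. Per kb of called peak the order turned, with 1.51 and 1.44 in WT and 1.30 and 1.30 in βRapKO (log2 −0.18). In CPM the genotypes did not overlap in either region.

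Among regions lower by more than 1.5-fold whose libraries did not overlap (87 in deserts, 0.789%, against 1.63% of all), the 3 with the largest ratios lay near Luzp2, Itga1 and Suds3. The region chr7:53820254-53822447, 1013 kb from Luzp2, gave 4.65 and 5.04 CPM in WT and 2.33 and 2.37 in βRapKO (log2 −1.05, adjusted p = 0.358, edgeR). The region chr13:115287927-115290063, between the integrin gene Itga1 and Isl1, a transcription factor of islet cells and motor neurons, gave 4.18 and 2.59 in WT and 1.68 and 1.65 in βRapKO (log2 −1.03, adjusted p = 0.645, edgeR). In the second region the WT libraries were themselves far apart, and the fitted log2 fold change was −0.64 without WT library 1 and −1.33 without WT library 2. The region chr5:116954742-116957802, between Srrm4, a splicing factor of neurons, and Suds3, a subunit of the Sin3 corepressor, gave 4.61 and 4.69 in WT and 2.67 and 1.95 in βRapKO (log2 −1.01, adjusted p = 0.428, edgeR). Per kb of called peak the 3 log2 ratios were 0.09, 0.01 and −0.21.

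On the other side stood 129 non-overlapping regions higher by more than 1.5-fold (1.17%, against 1.16% of all). The largest ratio was that of chr17:49221031-49223561, between Lrfn2, a synaptic adhesion gene, and Mocs1, an enzyme of molybdenum cofactor synthesis. It gave 1.21 and 0.926 CPM in WT and 2.36 and 3.57 in βRapKO (log2 1.47, adjusted p = 0.392, edgeR, per kb 0.10). The next ratios were those near Gm12728 and Scgb2b15 described above.

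**Figure D4:**
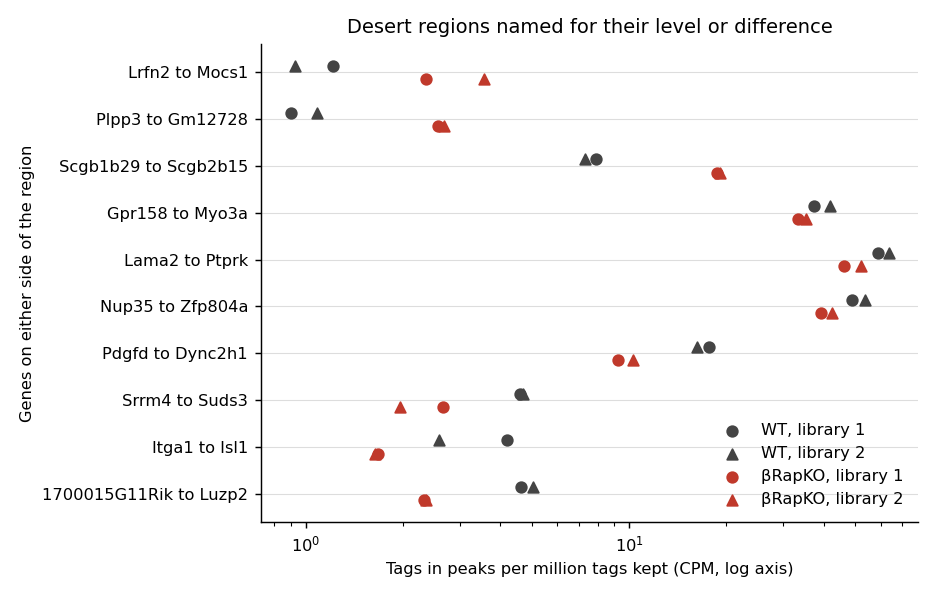
CPM (x axis, log scale) in each of the 4 libraries for the 10 desert regions named for their level or their difference, listed by the genes on either side, with WT in dark grey and βRapKO in red (circle, library 1, triangle, library 2). The genotypes are apart in each of the 10 regions, which the choice itself required of those named for their ratio and favoured in those of smallest p. With edgeR adjusted p is at least 0.173 in all of them.

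The highest level of all desert regions, in CPM per region and not per length, was that of the tandem array between Lama2, a laminin gene, and Ptprk, a receptor phosphatase gene, at chr10:27817723-27826316 (60.7% GC, 5.54 CpG sites per 100 bp). It gave 58.8 and 63.5 CPM in WT and 46.3 and 52.2 in βRapKO (log2 −0.31, adjusted p = 0.700, edgeR). The array at chr2:80811111-80818070 gave 49.0 and 53.8 in WT and 39.4 and 42.4 in βRapKO (log2 −0.33, adjusted p = 0.598, edgeR). One more at chr2:22001185-22007805, between Gpr158 and Myo3a, gave 37.4 and 41.9 in WT and 33.3 and 35.4 in βRapKO (log2 −0.21, adjusted p = 0.858, edgeR). All 3 were lower in both βRapKO libraries, and called lengths were nearly equal (8248 to 8438 bp in the first). Their fold enrichment was only 1.93 to 2.82. These regions were 6621 to 8594 bp long, and the peak caller took its background from up to 10000 bp around a peak. Whether this bears on their fold enrichment was not tested.

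Sequence of this array recurred widely. At least 50% of the words of 486 other desert regions were also in the array between Lama2 and Ptprk (1.89% of desert regions, against 0.646% of regions within 100 kb and 0.311% of genic regions), and 480 of them were called in every library. These 480 regions carried 7.45% of the tags of desert regions found in all 4 libraries. Summed, they gave 3014 and 3111 CPM in WT and 2582 and 2702 in βRapKO (3063 ± 68.4 and 2642 ± 84.8, SD, n = 2). Both βRapKO libraries lay below both WT libraries for the sum and for 337 of the 480 regions, and above for 3, against 25.3% and 11.6% of all regions tested.

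In 449 of these 480 regions the mean CPM was lower in βRapKO (median log2 ratio −0.20). The direction held under each scaling but its size did not, at −0.14 with TMM (421 lower), −0.29 per kb of called peak (472 lower) and −0.04 when scaled to the tags in peaks (309 lower). At an unadjusted p under 0.05 were 63 lower and 0 higher of the 480 (edgeR), against 3.93% and 1.88% of all regions tested, and the smallest adjusted p was 0.597. The regions had a median GC content of 50.4%, and desert regions of 48 to 52% GC had a median of −0.09 in the main scaling. The 480 regions share sequence and libraries, and reads may be exchanged between copies, so they are not separate observations. This set of regions was chosen after its values were seen and has no test of its own.

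GC content moved with the ratio of the genotypes in general. The median log2 fold change of desert regions was 0.00 up to 40% GC, −0.02 at 40 to 44%, −0.03 at 44 to 48%, −0.09 at 48 to 52%, −0.16 at 52 to 56% and −0.17 above. Regions within 100 kb (−0.01 to −0.18) and genic regions (−0.02 to −0.23) followed the same course. Libraries of 1 genotype differed along the same axis. WT library 2 over library 1 went from −0.13 to 0.21 over these bins, and βRapKO library 2 over library 1 from 0.04 to 0.25. In deserts the course between genotypes was no larger than that between libraries of 1 genotype, and the part of GC content in the ratios above was not tested.

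**Figure D5:**
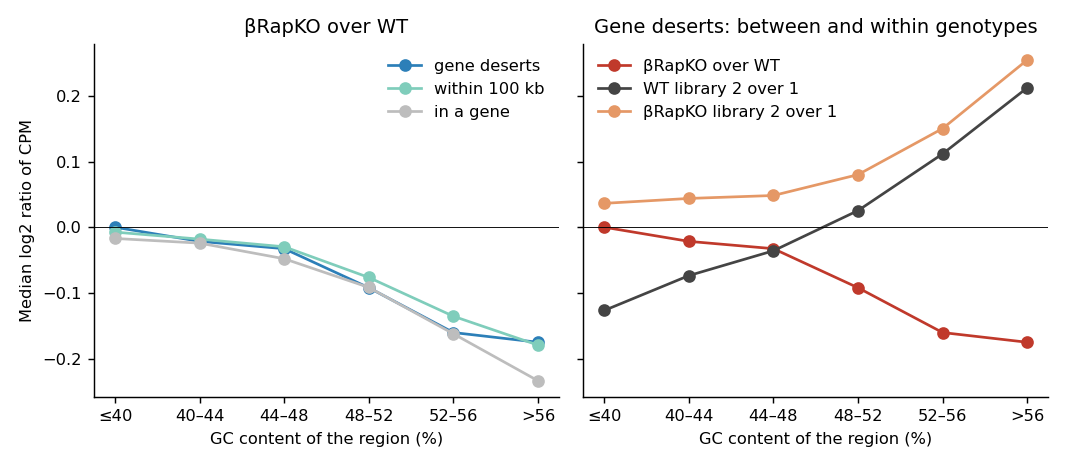
Median log2 ratio of CPM (y axis) by GC content of the region in percent (x axis). Left, βRapKO over WT for regions in deserts, within 100 kb and in genes. Right, for desert regions, βRapKO over WT beside library 2 over library 1 of each genotype. The genotype ratio of desert regions runs from 0.00 to −0.17 and the WT library ratio from −0.13 to 0.21.

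Regions called in 1 genotype only were counted apart, since a region without a peak has no tag count. Peaks in both WT libraries only were found in 919 desert regions (3.57%, against 4.16% of all joined regions), and in both βRapKO libraries only in 405 (1.57%, against 1.58%). With the same number of top-ranked peaks taken from every library the order turned, to 565 and 679. Pairs of 1 WT and 1 βRapKO library gave counts above and below these. Of desert regions, 1086 had peaks in library 2 of WT and of βRapKO only, and 792 in library 2 of WT and library 1 of βRapKO only. A further 437 had peaks in library 1 of both genotypes only and 389 in library 1 of WT and library 2 of βRapKO only. These 4 pairs made up 4.22%, 3.08%, 1.70% and 1.51% of desert regions, against 4.17%, 3.52%, 1.63% and 1.57% of all joined regions. The pairs over 3% all include WT library 2, the deepest. Regions with peaks in both WT libraries only made up 4.94% of desert regions with up to 1 CpG site per 100 bp and 1.48% of those with over 4, and regions called in both βRapKO libraries only 2.38% and 0%.

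The region of the highest level among those called in WT only, chr3:16792598-16800535, lay 576 kb from Ythdf3, a reader of RNA methylation, and was 7938 bp long. Its level was 27.7 CPM in both WT libraries. Its 237 CpG sites stood in repetitive DNA (81.0% in lower case, 86.0% shared words), and 11 other desert regions drew at least 50% of their words from it. The next, chr4:75066955-75070949, 206 kb from Dmac1, gave 14.4 and 14.8 CPM in WT, with 86.4% shared words. Neither had a peak in a βRapKO library. Their fold enrichment in the WT libraries was 4.05 and 5.71 for the first region and 5.23 and 5.64 for the second. The median of desert peaks in these libraries was 7.71 and 7.77. Why no peak was called in βRapKO was not tested.

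Both named regions called in βRapKO only held little repeat sequence. The region chr4:142495935-142500390, between Kazn, a gene of cell junctions, and Prdm2, a histone methyltransferase gene, gave 8.01 and 7.54 CPM in βRapKO and had no peak in WT. It was 17.5% in lower case and held no shared word. The region chr10:68993595-68996503, between Tmem26 and Rhobtb1, gave 5.13 and 5.18 CPM and was 19.4% in lower case. These 4 regions were named by their levels, and their contrast in repeat content did not recur over the sets. Of the 919 regions called in WT only, 163 had 60 to 90% of bases in lower case and 68 had more, and of the 405 called in βRapKO only, 79 and 24 did.

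The 3 regions richest in CpG sites were not those of the highest level, in CPM per region. They were 879 to 1292 bp long, against 6621 to 8594 bp for the 3 of the highest level. Over desert regions called in every library the median CPM rose with CpG content. It was 1.53 at up to 1 CpG site per 100 bp, 7.46 at 3 to 4 and 3.80 above 4. The region richest in CpG sites, chr2:46281663-46282541 between Zeb2, a transcription factor of neural crest, and Acvr2a, an activin receptor, had 10.7 CpG sites per 100 bp and a peak in WT library 1 only, at 1.21 CPM. The second, chr12:21777641-21778743 near Ywhaq, had 6.89 per 100 bp and peaks in 3 libraries at 1.404 to 1.72 CPM. The third, chr12:21897848-21899139 in the same desert, was 6.42 per 100 bp, nearly free of masked bases (2.94%), and gave 1.95 and 2.23 CPM in WT and 1.51 and 1.58 in βRapKO (log2 −0.44, adjusted p = 0.858, edgeR). The genotypes did not overlap there. The unit CCTCG, 3 times in a row (CCTCGCCTCGCCTCG or its reverse complement), stood in the central window of 2 desert regions and of 8 regions on the autosomes, 0.00442% of them.

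Enrichment was highest elsewhere. Among the most enriched desert regions were chr8:15519542-15520868 near Csmd1, with a fold enrichment of 22.8 to 26.8 over the libraries, and chr12:21914511-21915566 near Ywhaq, with 22.4 to 27.1. They had 2.41 and 1.89 CpG sites per 100 bp. The first gave 14.3 and 14.3 CPM in WT and 13.8 and 12.8 in βRapKO (log2 −0.11, adjusted p = 0.895, edgeR), lower in both βRapKO libraries.

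Genes of 3 kinds were looked up as the nearest coding gene of desert regions. The first kind, cadherins, protocadherins, SLITRK, LRRTM and contactin genes, encodes surface proteins that join cells, most of them in the nervous system. With 0.260% of the autosomal coding genes, these 54 genes were nearest to 1460 desert regions (5.67%), around 35 of the genes. Pcdh7 (88 regions), Pcdh17 (79), Pcdh9 (78), Cntnap5b (76) and Cdh8 (74) had the most. Their regions were rich in repeats (median 68.3% in lower case). Of the 673 called in every library, 376 were lower in βRapKO by mean CPM, 153 did not overlap and were lower (22.7%), 78 were higher (11.6%), against 25.3% and 11.6% of all regions tested, and the median log2 ratio was −0.03, against −0.05 for all desert regions. TMM and scaling to the tags in peaks move every region by 1 common amount, so that a list median this close to 0 changes sign with them as that of all desert regions did.

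The second kind, 40 transcription factors of development known for large surrounding deserts, was nearest to 876 regions (3.40%) around 35 of the genes. Since these genes were listed for their large deserts, the number of regions near them was fixed by the choice. Their deserts were low in repeats, with a median of 19.9% in lower case. Sox9, a factor of cartilage, testis and pancreatic progenitors, led with 85 regions, before Sall1 (53), Tbx3 (51) and Tshz3 (46). Of the 33 Sox9 regions called in every library, 14 were lower and 19 higher by mean CPM, with a median log2 ratio of 0.13 and a range from −0.58 to 0.51. Of 21 Tshz3 regions 16 were lower (median −0.13). Over the list, 198 of 329 were lower (median −0.05), 77 without overlap (23.4%) and 52 were higher without overlap (15.8%), against 25.3% and 11.6% of all regions tested.

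The third kind was transcription factors of beta cells, which islet identity rests on. Of 18 on the autosomes, 7 had any desert region nearest to them, 86 regions in all (0.334%). Isl1 had 30, Nkx6-1 24, Foxa2 14 and Rfx3 11. Only 25 were called in every library (median log2 ratio 0.00), and 12 of them were lower by mean CPM. Without overlap 1 region was lower and 3 were higher, of 25, against 25.3% and 11.6% of all regions tested.

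The 13 Isl1 regions ranged from −0.15 to 0.59 in log2 fold change. The largest was that of chr13:116440623-116442072, 131 kb from Isl1, with 1.6416 and 1.5001 CPM in WT and 2.09 and 2.64 in βRapKO (1.57 ± 0.100 and 2.36 ± 0.390, SD, n = 2, adjusted p = 0.849, edgeR). The highest level near Isl1 was that of chr13:115888464-115892650, 88.3% in lower case, with 16.6 and 14.7 in WT and 15.2 and 16.5 in βRapKO. It overlapped between genotypes. The 8 Nkx6-1 regions ranged from −0.34 to 0.22, and the region 100.6 kb from Rfx3, chr19:28111775-28113587, gave 3.09 and 2.59 in WT and 3.59 and 4.04 in βRapKO (log2 0.43, adjusted p = 0.858, edgeR). No region of the 3 lists passed the adjusted test, and a nearest gene is a position, not a target.

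Whole deserts differed little. Over 161 intervals with at least 20 regions called in every library, the summed CPM of these regions changed by −0.22 to 0.07 on the log2 scale (median −0.04). Both βRapKO sums lay below both WT sums in 54 intervals (33.5%), above in 9 (5.59%), and overlapped in 98. Such sums were made for deserts only, so no share over other DNA stands beside these. Single regions of all classes gave 25.3% below and 11.6% above. A common scaling moves all sums together, so the shares are not read as a trait of deserts. The interval between Matn1, a matrix protein of cartilage, and Ptpru, a receptor phosphatase, had the lowest ratio, with 83.9 and 87.7 CPM in WT and 72.9 and 74.2 in βRapKO. Of its 32 regions found in all 4 libraries 24 were lower, 5 by more than 1.5-fold. Between Cox7c and Edil3, the sums were 222.2 and 235.2 in WT and 236.5 and 244.4 in βRapKO, the highest ratio, without overlap. In that interval 26 of 45 regions were nevertheless lower and 4 were higher by more than 1.5-fold, so that a few regions carried the sum.

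The deserts with the most regions overlapped between genotypes in most cases. Between Igfbp7 and Adgrl3 the 65 regions found in all 4 libraries summed to 245.1 and 242.0 CPM in WT and 234.6 and 249.7 in βRapKO. The 45 between Kcnj2 and Sox9 gave 137.9 and 135.1 against 131.6 and 137.9. The 43 between Got2 and Cdh8 gave 137.0 and 130.5 against 119.6 and 126.9, which did not overlap. As for single regions, the direction of such sums depends on the scaling, and no interval was tested.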

How the data were processed

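Islet DNA from 2 WT and 2 βRapKO libraries was enriched with the MagMeDIP kit and sequenced for 50 cycles on an Illumina HiSeq. Per the labels, the authors aligned reads to mm10 with Bowtie2 (version 2.2.5). The processing notes list mm9 as well, without a role, and mm10 was used for all coordinates. Read in mm10, desert regions held 1.53 CpG sites per 100 bp, against 0.594 in all desert DNA. The authors called peaks per library, without pooling or a control library, with MACS (1.4.2 in the file headers, 0.14.2 in the labels) at p 1e-05, keeping 1 tag per position. The deposited tag counts give the reads in each peak. The deposited score is the scaled negative log10 of the caller's p, and the deposited fold enrichment is the ratio of the summit to the local background within 10000 bp. The handling of reads that align to several places is not given in the sources used here.

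Peaks were joined across libraries and tags summed per region, divided by tags kept (CPM). Distances used the GENCODE M21 annotation of GRCm38, and sequences the RefSeq GRCm38 genome. Regions called in every library were tested with edgeR (4.0.16, quasi-likelihood, library size set to tags kept, Benjamini-Hochberg adjustment over all 75052 regions) in R 4.3.3. DESeq2 (1.42.0, with its own scaling of the libraries) and limma (3.58.1, on log2 of CPM plus 0.5) were also run. Medians per library were compared with exact permutation tests (SciPy 1.17.1, Python 3.11.15). Libraries held 25585533 to 31330751 tags, but counting error follows the tags per region, which ran from 23 in 1 WT library near Gm12728 to 1988 in the array near Lama2 among regions compared by name. Regions without a peak in a library were left out of ratios. The scripts were tested on simulated data. Regions were named by rank: the 3 of highest mean CPM, smallest p and largest ratio without overlap in each direction, the 2 of highest CPM called in 1 genotype only, and the 3 farthest from genes, richest in CpG sites (at least 500 bp wide) and most enriched. The desert rule and gene lists were chosen with earlier results of these data known. Some items met by these rules are not reported here. Other scalings, thresholds, distances and left-out libraries were tried as alternatives.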

Additional observations from a re-analysis of the deposited data

How the results depend on the processing

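Of the values recomputed under the alternatives, 84 kept their direction and, for counts, stayed within 1.5 times or, for tested values, on their side of the threshold. A further 27 moved and 3 changed sign. Part of the 84 was fixed in advance. A count of 0 could not move under a stricter FDR or fold. The exact permutation tests cannot reach a p under 0.05 with 4 libraries, so that only the direction of their values could change. Against 99 desert regions lower and 140 higher by more than 1.5-fold with a median log2 fold change of −0.046, scaling to the tags in peaks gave 30, 365 and 0.113, TMM gave 58 lower and a median of 0.0173, and tags per kb of called peak gave 408, 13 and −0.161. At least 50 tags in every library left 37 lower and 53 higher, a peak score of at least 100 left 20 and 73, a distance over 200 kb left 60 and 85, and a distance over 50 kb gave 154 lower. By construction these 4 alternatives change how many regions enter. Without 1 library the counts ran from 181 to 410 lower and from 208 to 373 higher. In these fits a lone library was assumed to vary like the other genotype. DESeq2 called 1 region higher at an FDR under 0.05, and every other fit called 0. Peaks in both WT libraries only and in both βRapKO libraries only, 919 and 405, became 534 and 184 at a peak score of at least 100, 547 and 259 beyond 200 kb, and 565 and 679 with equal numbers of peaks. The difference in median density of desert peaks, −0.155, became 0.137 when scaled to the tags in peaks. The cause of these shifts was not tested. Among values that kept direction, the share of peak tags ran from 0.379 to 1.09 points and the width difference between genotypes from 60.5 to 185.5 bp. In the alternatives for desert against other peaks, chosen after seeing the data, the mean differences kept their sign, but that of width ran from −38.5 to −6.5 bp (exact permutation p = 0.375 at a peak score of at least 100, with 4 libraries) and that of density from 0.0343 to 0.103.

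With the replicate number as a replicate block edgeR called 0 regions lower and 0 higher, with 527 instead of 490 past an unadjusted p of 0.05. Same-numbered libraries deviated together with a correlation of only 0.0474, and nothing in the labels ties them, so that they share only a number.

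Precision was limited by 2 libraries per genotype, by levels known only inside called peaks, by repeat copies that reads cannot tell apart, and by a GC course that also separated libraries of the same genotype. MeDIP-seq measures relative enrichment and gives no methylation level per CpG site.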

Other observations

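Desert regions on the sex chromosomes were set apart, since the rule covered the autosomes only. The X chromosome held 1152 regions and the Y chromosome 1184 by the same distance rule. They were richer in repeats than on the autosomes, with a median of 88.3% of bases in lower case on X and 99.9% on Y, against 42.2%, and in CpG sites, with 2.26 and 2.28 per 100 bp, against 1.53. A peak in every library was found for 637 regions on X and 534 on Y. The mean CPM was lower in βRapKO in 68.0% and 63.5% of these, against 58.9% on the autosomes, with median log2 ratios of −0.08 and −0.06.

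Among autosomal desert regions with at least 10 CA units in a row in the central 300 bp, 193 were called in every library. These had a median log2 ratio of 0.02, with 85 of the 193 lower in βRapKO by mean CPM. Of all desert regions called in every library 58.9% were lower, and of all regions tested 61%. Such medians and counts move with the scaling, as those of all desert regions did.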
